A study of Mus musculus with 9 samples.

Results

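Mucosal-type secreted and barrier genes were followed across 9 mouse liver tumors, namely the trefoil factors Tff1, Tff2 and Tff3, the trypsin inhibitor Spink1 and the small proline-rich protein gene Sprr1a. They are 5 of the 24421 gene symbols in each tumor's profile. They were picked by name with their values in these same tumors already known, so their levels and differences are given as a description, with no test. All 5 were highest on average in S7HP tumors. With Snail added they were lower on average, Sprr1a down to about its LHP level and Tff3 and Spink1 by much less.

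The groups were LHP, S7HP and S7HP+Snail, with 3 liver tumors each, all from C57BL/6 mice at 11 weeks. The labels do not spell the names out, but column headers in the files read Luc for LHP and Smad7 for the others. Smad7 is an inhibitory member of the Smad family that dampens TGF-β signaling, and Luc is the usual short form of luciferase, an inert control. In the published work on this model, as background, H and P stand for an activated HRAS and a hairpin against p53, which all groups carry, delivered to liver cells in the living animal. The third group adds Snail, the repressor of epithelial genes encoded by Snai1. The labels do not say whether tumors came from separate animals, so the spread within a group is that between these samples and may be partly technical.

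Trefoil factors are small secreted peptides with a fold of loops held together by bonds between cysteines. They are made with mucins by mucus cells of the stomach (Tff1 and Tff2) and by goblet cells of the intestine (Tff3), and they act in epithelial repair. Spink1 is a secreted Kazal-type inhibitor that blocks prematurely activated trypsin in the pancreas. Sprr1a is a substrate that transglutaminases link into the cornified envelope of squamous epithelium, and it is induced in injured tissues. The healthy adult liver is not a main site of any of these products.

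The coding sequences of the trefoil genes are shown to make the shared fold visible. Capitals mark in-frame TGT and TGC codons, which encode cysteine, and for Tff2 the first 300 of 390 bases are given. The sequences are those of the GENCODE M21 transcripts on GRCm38, minus strand of chromosome 17, with a coding span of 31161577 to 31165020 for Tff1 in 3 exons, 31141209 to 31144248 for Tff2 in 4 exons and 31125483 to 31129576 for Tff3 in 3 exons.
Tff1: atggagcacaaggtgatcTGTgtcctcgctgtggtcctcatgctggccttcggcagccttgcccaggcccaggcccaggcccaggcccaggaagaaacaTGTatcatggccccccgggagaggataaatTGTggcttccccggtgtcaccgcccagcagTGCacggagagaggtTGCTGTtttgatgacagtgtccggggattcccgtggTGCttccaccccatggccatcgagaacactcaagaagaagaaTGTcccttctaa
Tff2: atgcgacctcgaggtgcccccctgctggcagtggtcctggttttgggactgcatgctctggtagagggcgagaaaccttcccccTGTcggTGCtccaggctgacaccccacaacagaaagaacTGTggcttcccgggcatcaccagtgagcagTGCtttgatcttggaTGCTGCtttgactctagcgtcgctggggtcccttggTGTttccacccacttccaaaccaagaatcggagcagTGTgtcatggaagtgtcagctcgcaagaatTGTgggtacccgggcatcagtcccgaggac
Tff3: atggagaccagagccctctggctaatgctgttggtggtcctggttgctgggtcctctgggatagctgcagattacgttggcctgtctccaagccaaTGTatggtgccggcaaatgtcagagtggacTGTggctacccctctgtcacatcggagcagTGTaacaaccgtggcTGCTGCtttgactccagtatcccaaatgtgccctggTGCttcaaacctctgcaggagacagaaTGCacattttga
Tff1 has 87 codons before the stop, 8 of them for cysteine, and Tff3 has 81 with 7. Tff2 has 129 codons with 14 for cysteine. Adjacent cysteine codons, a landmark of the trefoil fold, occurred as 1 pair in Tff1, 1 pair in Tff3 and 2 pairs in Tff2, which is known to hold a repeat of the fold.

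The promoter of Sprr1a is shown because it was the only member found in the promoter table. It is the stretch of 236 bases before the annotated gene start (RefSeq table, GRCm38.p6, chr3:92485896-92486131, minus strand, written 5′ to 3′). Capitals mark matches to 3 short motifs.
Sprr1a: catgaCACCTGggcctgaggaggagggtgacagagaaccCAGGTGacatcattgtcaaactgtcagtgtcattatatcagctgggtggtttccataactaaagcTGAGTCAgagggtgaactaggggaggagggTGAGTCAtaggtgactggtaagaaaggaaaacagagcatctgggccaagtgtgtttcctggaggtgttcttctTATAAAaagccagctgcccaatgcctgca
The AP-1 element TGANTCA, its own reverse complement and bound by Fos and Jun proteins, matched at 2 places, starting 132 and 102 bases before the gene start. The E-box CAGGTG, a form that Snail proteins bind, was searched on both strands (as CACCTG on the other) and matched at 2 places, starting 231 and 197 bases before the start. The TATA box TATAAA, searched on the sense strand only, began 29 bases before it. None of these matches overlapped. Over 32851 promoters of the same length, 6.50% held the AP-1 element, 16.3% the E-box and 7.31% the TATA box. Among 13 other Sprr genes with a promoter in the table, 8 held the AP-1 element, 9 the TATA box and 0 the E-box. A match describes the letters only, and a part of any of these motifs in the levels of Sprr1a was not tested.

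Each library held values on the scale log2(normalized count + 1), with a quantile-normalized total of 19910396 to 19911234 counts per library. The total count of each library is therefore not preserved. The third-lowest step above 0, which would be 3 reads if each step is 1 read, lay between 1.22 in S7HP+Snail tumor 14 and 2.64 in S7HP tumor 11, so values in that range are at the limit of detection. QuantSeq libraries give about 1 tag for each transcript from its 3′ end, so levels of different genes can be set side by side without a length correction. Log2 values of Smad7 ran from 9.49 to 10.50 in LHP, 6.28 to 6.81 in S7HP and 6.77 to 8.0 in S7HP+Snail, and those of Snai1 from 9.93 to 11.16, 6.17 to 6.92 and 7.31 to 8.53. A 3′ tag sees a construct only if it carries the gene's own 3′ end, so these values check no label. S7HP+Snail tumor 14 stood apart from its group in epithelial genes: the keratin gene Krt19 was at 4.35 there against 12.53 and 11.29 in tumors 13 and 15, and the adhesion molecule gene Epcam at 4.2 against 12.96 and 8.19. Most results of S7HP+Snail that tumor 14 moves by over 1.5 times are given without it too. In whole tumors, fewer cells of a type and less RNA per cell cannot be told apart.

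Tff1 (chromosome 17, 31161395 to 31165277) was scarce in LHP and among the most abundant transcripts in S7HP. Its log2 values were 5.68, 4.09 and 5.74 in LHP tumors 2, 3 and 6, 14.53, 13.01 and 14.36 in S7HP tumors 9, 11 and 12, and 11.40, 6.26 and 8.70 in S7HP+Snail tumors 13, 14 and 15. The 3 groups did not overlap, although the lowest S7HP+Snail tumor lay only 0.52 above the highest LHP tumor. In S7HP, Tff1 ranked 85, 360 and 99 among the 24421 symbols, with 23605, 8244 and 21011 normalized counts, or 0.119%, 0.0414% and 0.106% of the library. In S7HP+Snail tumor 14 it ranked 10860, with 75.8 normalized counts. Group means, in the order LHP, S7HP, S7HP+Snail, were 5.17 ± 0.94, 13.97 ± 0.83 and 8.79 ± 2.57 (SD, n = 3 each). The difference of S7HP over LHP was 8.80 ± 1.08 (limma SE), about 445-fold on this scale. S7HP+Snail lay below S7HP by a log2 difference of -5.17 ± 1.08, and above LHP by 3.62 ± 1.08. That last difference was 4.89 without S7HP+Snail tumor 14 and 2.31 without tumor 13. An antisense gene, Gm15318, overlaps Tff1 on the other strand (31152752 to 31163054), and since the use of strand in counting is not given in the sources used here, its reads cannot be told apart from those of Tff1.

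Tff2 (chromosome 17, 31141049 to 31144282) showed the widest scatter with Snail. Its log2 values were 4.70, 0.00 and 3.87 in LHP tumors 2, 3 and 6, 12.61, 10.98 and 10.90 in S7HP tumors 9, 11 and 12, and 10.69, 2.00 and 8.32 in S7HP+Snail tumors 13, 14 and 15. Tumor 13 came within 0.20 of the lowest S7HP tumor, whereas tumor 14, with 3.00 normalized counts on the sixth step above 0, sat among the LHP values. The SD within S7HP+Snail, 4.49, exceeded that of 99.7% of the 14215 genes tested, whose median SD in that group was 0.45. The S7HP minus LHP difference was 8.64 ± 1.96 and the S7HP+Snail minus S7HP difference -4.49 ± 1.96 (limma SE). Without tumor 14 the latter was -1.99, and without tumor 13 it was -6.34. S7HP+Snail exceeded LHP by 4.15 ± 1.96, a value that was 6.65 without tumor 14 and 2.30 without tumor 13. LHP tumors 2, 3 and 6 held only 25.0, 0 and 13.7 normalized counts. Both differences from LHP therefore depend on what is added to low counts before the log.

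Tff3 (chromosome 17, 31125306 to 31129646) was close to absent from LHP and, with Snail, fell below S7HP but stayed well above LHP. It was listed at 0 in LHP tumors 3 and 6 and at 3.56 in tumor 2, at 11.97, 9.72 and 11.34 in S7HP tumors 9, 11 and 12, and at 9.30, 7.84 and 8.29 in S7HP+Snail tumors 13, 14 and 15. All 3 groups were separate, and tumor 14 was near the others here, with 228 normalized counts against 629 and 311. The S7HP mean was 11.01 ± 1.16 and the S7HP+Snail mean 8.48 ± 0.75 (SD, n = 3 each). S7HP exceeded LHP by 9.83 ± 0.96 and S7HP+Snail lay -2.54 ± 0.96 from S7HP (limma SE). The difference from LHP depends on what is added to low counts before the log: with a pseudocount of 16 it was 6.78 for S7HP and 4.29 for S7HP+Snail, in place of 9.83 and 7.29.

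Spink1 (chromosome 18, 43728082 to 43737557) had a clear level in LHP already. Its log2 values were 5.86, 7.19 and 7.67 in LHP tumors 2, 3 and 6, 13.86, 12.55 and 13.00 in S7HP tumors 9, 11 and 12, and 13.59, 10.21 and 10.84 in S7HP+Snail tumors 13, 14 and 15. Tumor 13 lay inside the S7HP range, and tumors 14 and 15 lay between the other groups. Means were 6.91 ± 0.94, 13.14 ± 0.67 and 11.54 ± 1.80 (SD, n = 3 each). S7HP exceeded LHP by 6.23 ± 0.81, about 75.1-fold, and S7HP+Snail exceeded LHP by 4.64 ± 0.81, about 24.9-fold (limma SE). Between S7HP+Snail and S7HP the difference was -1.59 ± 0.81, with overlapping groups. Leaving out 1 library moved it from -0.92 (without tumor 14) to -2.62 (without tumor 13).

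Sprr1a (chromosome 3, 92483952 to 92485895) was the member that LHP tumors expressed most. Its log2 values were 10.89, 9.62 and 8.01 in LHP tumors 2, 3 and 6, 13.18, 14.95 and 14.26 in S7HP tumors 9, 11 and 12, and 10.35, 8.72 and 10.30 in S7HP+Snail tumors 13, 14 and 15. The S7HP tumors stood above both other groups, with the S7HP+Snail values inside the LHP range. In S7HP tumor 11 it ranked 51 among all symbols, with 31743 normalized counts. Means were 9.51 ± 1.44, 14.13 ± 0.89 and 9.79 ± 0.93 (SD, n = 3 each). S7HP exceeded LHP by 4.62 ± 0.74, and S7HP+Snail differed from S7HP by -4.34 ± 0.74, about 20.2-fold lower (limma SE). S7HP+Snail and LHP were apart by 0.28 ± 0.74, less than the spread between tumors, and the sign turned without LHP tumor 6, to -0.46.

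**Figure D1:**
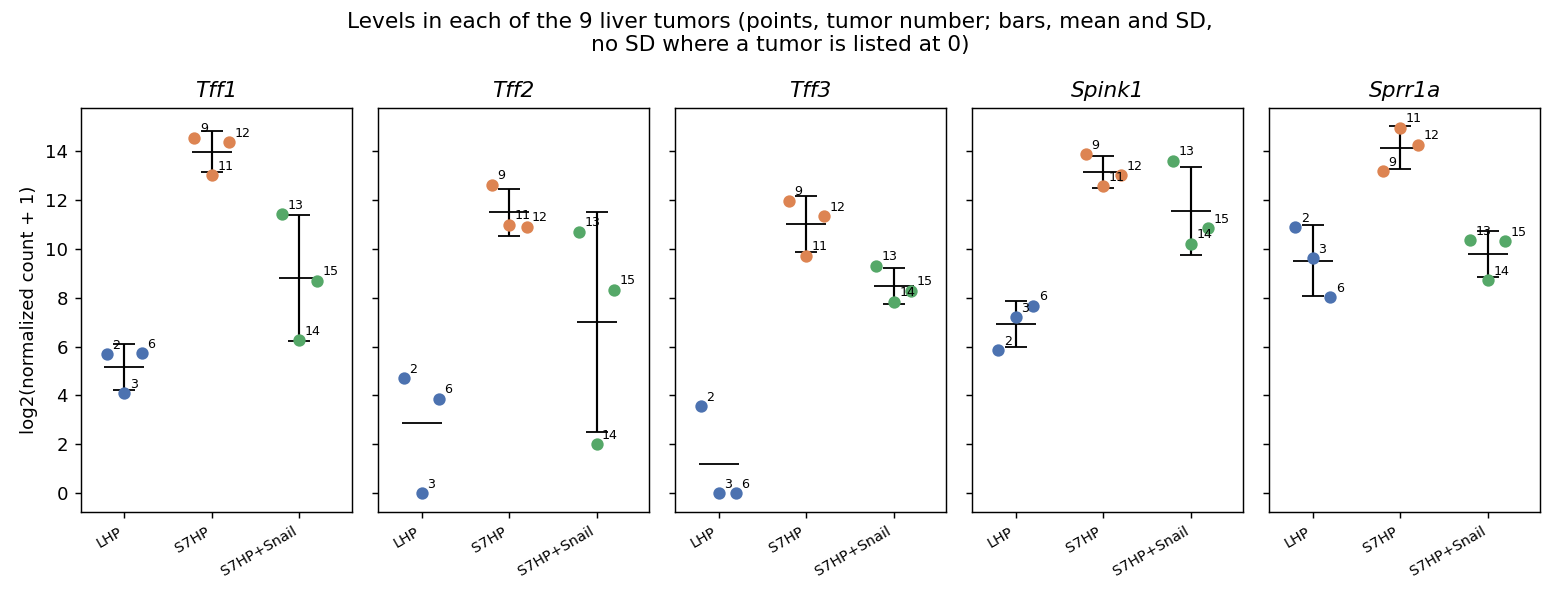
Levels of Tff1, Tff2, Tff3, Spink1 and Sprr1a in each tumor; the vertical axis is log2(normalized count + 1), points are tumors marked with their number, and bars give the group mean and SD, with no SD where a tumor is listed at 0. S7HP tumors lie highest on average in every panel, S7HP+Snail tumors 13, 15 and 14 follow the same order in all 5 panels, and only for Sprr1a do all S7HP+Snail points lie inside the LHP range.

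Set side by side, Sprr1a came closest to its LHP level with Snail. It did not fall furthest from S7HP: with all tumors in, the log2 differences were -5.17 for Tff1, -4.49 for Tff2 and -4.34 for Sprr1a. The drop from S7HP to S7HP+Snail amounted to 93.8% of the S7HP minus LHP difference for Sprr1a, 58.8% for Tff1, 52.0% for Tff2, 25.8% for Tff3 and 25.6% for Spink1 on the log2 scale. These shares rest on group means that share the S7HP tumors and carry no test, and tumor 14 and tumor 13 move some of them widely. For Tff3 and Tff2 they also divide by a difference from very low LHP counts. That difference depends on the pseudocount, so their place beside Spink1 and Tff1 does too. Without tumor 14 they were 82.3% for Sprr1a, 44.5% for Tff1, 23.0% for Tff2, 22.6% for Tff3 and 14.8% for Spink1, so that Tff2 and Tff3 were level. Without tumor 13 they were 99.9%, 73.7%, 73.4%, 30% and 42.0%. Sprr1a had the highest share in each case. Between S7HP and LHP the groups did not overlap for 5 of 5 members, where 42.1% of the tested genes did not overlap and 19.0% were called (9.47% higher and 9.54% lower, at an adjusted p under 0.05 by limma with Benjamini-Hochberg adjustment). Between S7HP+Snail and S7HP it was 4 of 5 members, where 20.5% did not overlap and 2.30% were called (1.01% higher, 1.29% lower), and between S7HP+Snail and LHP 3 of 5, where 30.5% did not overlap and 7.22% were called (3.35% higher, 3.87% lower). Nothing is read from these counts, since these contrasts chose the members. All 5 members passed the filter on low values, set at a log2 value of 4 or more in 3 or more libraries. Tff3 passed it without any LHP tumor and Tff2 with 1, so their distance from LHP follows in part from passing.

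**Figure D2:**
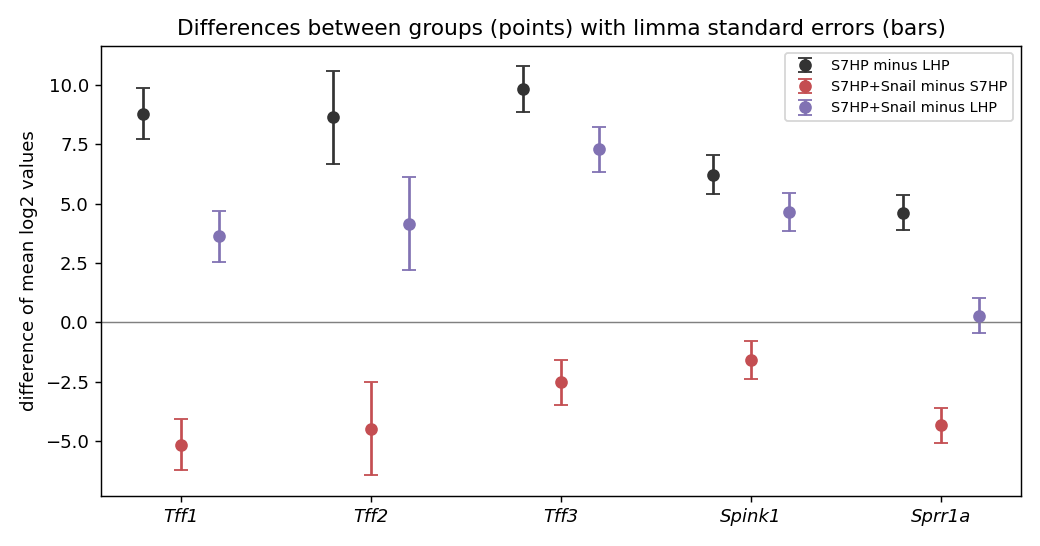
Differences of mean log2 values for each member in the 3 comparisons; points are differences and bars are limma standard errors. S7HP minus LHP is positive for all 5 members (4.62 to 9.83), S7HP+Snail minus S7HP is negative for all 5 (-1.59 to -5.17), and S7HP+Snail minus LHP runs from 0.28 for Sprr1a to 7.29 for Tff3.

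The order of tumors within groups was shared in part. In S7HP+Snail it was tumor 13, then 15, then 14 for all 5 members. In S7HP, tumor 9 was highest for Tff1, Tff2, Tff3 and Spink1 but lowest for Sprr1a, which was highest in tumor 11. In LHP, Sprr1a and Tff2 were highest in tumor 2, while Spink1 was lowest there.

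The trefoil genes form a tandem cluster of 39972 bp, and none of the annotated neighbours tested within 100 kb (Abcg1 and Rsph1) passed. Abcg1, a sterol exporter gene just beyond Tff3, had means of 6.72, 7.52 and 7.21 in LHP, S7HP and S7HP+Snail, the same order as the trefoil genes but with a difference of 0.80 ± 0.36 between S7HP and LHP that did not pass (limma, Benjamini-Hochberg adjusted p = 0.150). Tmprss3, a serine protease gene just beyond Tff1, reached at most 2.98, and Ubash3a, a lymphocyte gene, at most 2.92, in any tumor, so both stayed under the filter. Rsph1, a gene of cilia, had means of 3.98, 3.63 and 2.00 and did not pass in any comparison (limma, Benjamini-Hochberg adjusted p = 0.844, 0.457 and 0.271 for S7HP against LHP, S7HP+Snail against S7HP and S7HP+Snail against LHP).

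**Figure D3:**
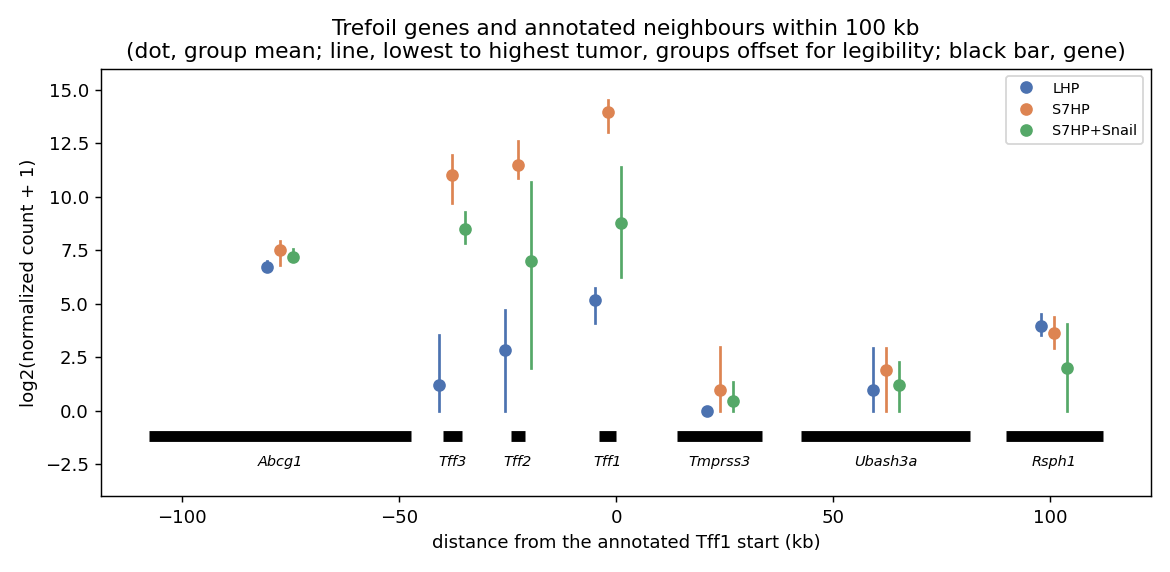
Trefoil genes and annotated neighbours within 100 kb on chromosome 17; the horizontal axis is the distance from the annotated Tff1 start in kb, the vertical axis log2(normalized count + 1), dots are group means, lines run from the lowest to the highest tumor and black bars mark genes. The groups part widely at Tff3, Tff2 and Tff1 and lie within about 1 of each other at Abcg1.

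Genes that work with the members were taken from lists set by function. Their counts of calls stand beside the shares of all tested genes called. These shares were 19.0% for S7HP against LHP, 2.30% for S7HP+Snail against S7HP and 7.22% for S7HP+Snail against LHP. Of 16 mucin and mucus entries, 13 were in the files and 4 passed the filter. Muc13, a transmembrane mucin, rose in S7HP (5.68 ± 1.75, SE, limma Benjamini-Hochberg adjusted p = 0.0484), a call lost in 9 of 15 alternatives (up to 0.153), and in S7HP+Snail over LHP (8.02 ± 1.75, adjusted p = 0.0286, lost in 5 of 15, up to 0.103). The first call needed each of LHP tumors 3 and 6, S7HP tumors 9, 11 and 12 and S7HP+Snail tumor 15, and the second each of LHP tumors 3 and 6 and S7HP+Snail tumors 13 and 15. The gel-forming mucins were low: Muc5ac, the partner of Tff1 in gastric mucus, reached 4.66 at most, Muc6, the partner of Tff2, 2.81, Muc2, the goblet cell mucin, 6.10, and Muc5b, a mucin of airway and bile duct glands, 6.97 (in S7HP+Snail tumor 15, with all LHP tumors listed at 0), each under the filter. Agr2, a protein-folding factor of mucus cells, ranged from 0.00 to 9.41 in LHP, 4.28 to 9.33 in S7HP and 1.22 to 13.04 in S7HP+Snail and did not pass. The list's median difference was 3.06 between S7HP and LHP over the 4 genes tested, against 0.02 over all genes. Without S7HP+Snail tumor 14, limma called 2 of the list's genes in each comparison with LHP.

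Stomach genes were mixed. Of 16, 7 were tested and 2 rose in S7HP over LHP: Vsig1, a gastric adhesion protein, by 8.82 ± 1.71 and Cldn18, the stomach claudin, by 7.76 ± 1.88 (limma SE, Benjamini-Hochberg adjusted p = 0.00830 and 0.0201). The call of Vsig1 held in each of 15 alternatives and that of Cldn18 needed each of LHP tumors 3 and 6 and S7HP tumors 9 and 12 (adjusted p up to 0.0753 when one was left out). Vsig1 was at 4.85, 0.00 and 0.00 in LHP tumors 2, 3 and 6, 8.93, 11.19 and 11.19 in S7HP tumors 9, 11 and 12 and 6.36, 1.53 and 7.77 in S7HP+Snail tumors 13, 14 and 15. Other tested members had lower means in S7HP than in LHP, without passing: the gastric protease gene Ctse had 3.43 against 5.27 and the annexin Anxa10 4.02 against 6.30, with 0.98 in S7HP+Snail. Gkn1, a gastrokine of surface mucus cells, had means of 0.78, 4.43 and 5.45 in LHP, S7HP and S7HP+Snail and did not pass. Gkn2, a gastrokine that binds Tff1, did not pass but was at 7.07, 1.29 and 8.22 in S7HP tumors 9, 11 and 12 and 10.18 in S7HP+Snail tumor 15, against at most 0.29 in LHP. Of the genes that define acid and chief cells, the proton pump subunit Atp4a was at 5.79, 5.18 and 5.70 in S7HP tumors 9, 11 and 12 against 3.86 at most in LHP, without passing, while the other subunit Atp4b, the lipase Lipf and intrinsic factor (Gif in the files) were listed at 0 in all 9 libraries and pepsinogen C, Pgc, reached 2.44. Between S7HP+Snail and S7HP, and between S7HP+Snail and LHP, limma called 0 of 7, with 3 and 2 at an unadjusted p under 0.05. Against S7HP there were 2 calls with a pseudocount of 16 and 1 without S7HP+Snail tumor 15. Against LHP there were 2 without S7HP+Snail tumor 14, 1 without S7HP tumor 9 and 1 with only the 6 libraries compared. The list's median differences were 3.65 (S7HP minus LHP), -3.05 (S7HP+Snail minus S7HP) and -0.42 (S7HP+Snail minus LHP). The summed level of the list was 5.83 to 8.44 in LHP, 11.34 to 13.29 in S7HP and 4.91 to 10.93 in S7HP+Snail (log2), and its part in the trefoil levels was not tested.

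Enterocyte genes were among the intestinal genes that rose. Of 16, 10 were tested, and 3 rose and 1 fell in S7HP: Fabp2, the enterocyte fatty acid binding protein (4.69 ± 0.51), Vil1, villin of the brush border (3.47 ± 0.40), Cdh17, the intestinal cadherin (4.47 ± 1.24), and the lectin Lgals2 (-1.14 ± 0.27), with Benjamini-Hochberg adjusted p of 0.000739, 0.000828, 0.0339 and 0.0177 (limma, SE). The calls of Fabp2 and Vil1 held in each of 15 alternatives. That of Cdh17 was lost in 6 (up to 0.118) and needed LHP tumors 3 and 6 and each S7HP tumor, and that of Lgals2 needed LHP tumor 6 and S7HP tumor 11 (up to 0.0717). In S7HP+Snail against LHP 3 of 10 rose, Fabp2 (4.30), Vil1 (2.02) and the antimicrobial lectin Reg3g (7.94), with adjusted p of 0.00262, 0.0185 and 0.0254 (limma, Benjamini-Hochberg). The call of Vil1 needed LHP tumors 3 and 6 (up to 0.0724 otherwise), and that of Reg3g needed these and S7HP+Snail tumors 13 and 15 (up to 0.0931). This count of 3 was 6 without S7HP+Snail tumor 14 and 1 without LHP tumor 3 or without LHP tumor 6. Between S7HP+Snail and S7HP limma called 0 of 10, with 2 at an unadjusted p under 0.05, but 3 without tumor 14 and 2 without tumor 13. Reg3b was at 13.51, 1.53 and 13.20 in S7HP+Snail tumors 13, 14 and 15 against 3.53 to 6.01 in S7HP, and Dmbt1, a mucosal scavenger protein proposed to bind trefoil factors, at 13.92, 2.92 and 12.72 against 6.38 to 7.30, without passing. Tumors 13 and 15, the higher ones for the 5 members within their group, were thus also the higher ones for these genes, and S7HP tumors, higher still for the trefoils, were not. The list's summed log2 level was 11.83 to 12.35 in LHP, 12.91 to 13.56 in S7HP and 11.76 to 15.52 in S7HP+Snail.

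**Figure D4:**
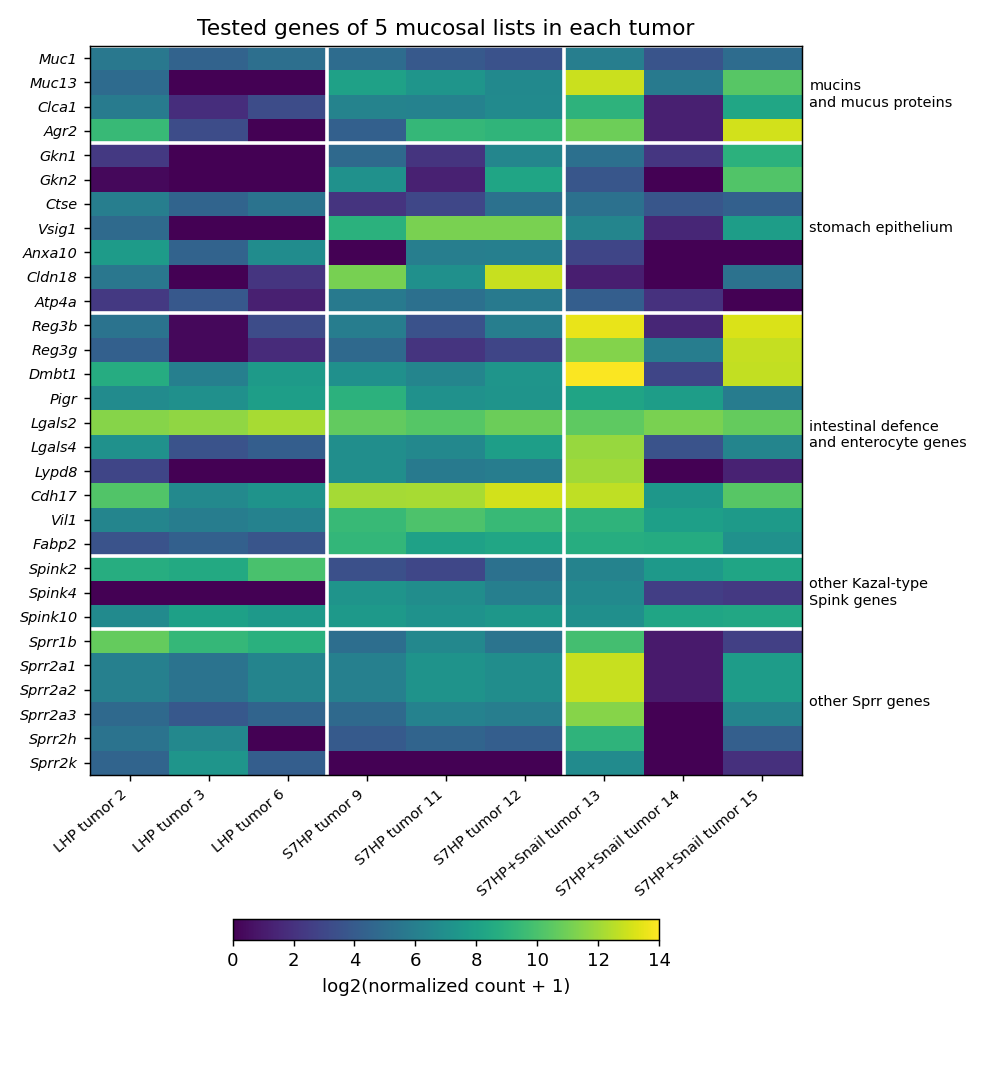
Tested genes of 5 lists (mucus, stomach, intestine, other Spink and other Sprr genes) in each tumor; rows are genes, columns tumors and color is log2(normalized count + 1) from 0 to 14. Vsig1 and Cldn18 are bright in S7HP, Reg3b and Dmbt1 in S7HP+Snail tumors 13 and 15, and S7HP+Snail tumor 14 is dark in most mucus, stomach and Sprr rows.

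The relatives of Spink1 did not move as a family. Of 11 other Spink genes 3 were tested. Spink4, the goblet cell Kazal inhibitor, rose in S7HP (6.72 ± 1.10, SE, limma Benjamini-Hochberg adjusted p = 0.00421) from a listing at 0 in all 3 LHP tumors to 7.22, 6.89 and 6.04. It was 6.66 in S7HP+Snail tumor 13 and 2.61 and 2.35 in tumors 14 and 15. No LHP tumor reached the filter level for Spink4, so its distance from LHP follows in part from passing. Spink2, the testis acrosin inhibitor, fell in S7HP (-5.20 ± 0.70, adjusted p = 0.00172) and rose with Snail over S7HP (3.49 ± 0.70, adjusted p = 0.0368; limma, Benjamini-Hochberg). The fall held in each of 15 alternatives, as did the rise of Spink4. The rise of Spink2 with Snail was lost in 9 of 15 (up to 0.129) and needed each LHP tumor, S7HP tumors 9 and 11 and S7HP+Snail tumors 14 and 15. Spink10 did not pass in any comparison.

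Trypsinogens, whose active form Spink1 inhibits, were scarce: Prss1 reached 1.0 at most, Prss2 4.79 and Try5 5.55, while Prss3 and Try10 were listed at 0 in all 9 libraries. Of 23 acinar and trypsinogen genes, 17 stayed under 4 in every library, 8 of them at 0 throughout, among them the acinar enzymes Cpa1, Ctrb1 and Pnlip and the acinar factor Ptf1a. The 1 gene tested, the elastase Cela1, rose in S7HP (1.91 ± 0.41, SE, adjusted p = 0.0122) and in S7HP+Snail over LHP (1.59 ± 0.41, adjusted p = 0.0478; limma, Benjamini-Hochberg). The first call needed LHP tumor 6 (0.0501 without it). The second was lost in 10 of 15 alternatives (up to 0.152) and needed each LHP tumor, S7HP tumors 11 and 12 and S7HP+Snail tumors 13 and 14.

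The relatives of Sprr1a were mixed. Of 14 other Sprr genes 6 were tested, 4 with a difference of S7HP over LHP in the direction of Sprr1a that did not pass (Sprr2a1 and Sprr2a2 0.81 each, Sprr2a3 1.30, Sprr2h 0.27) and 2 in the other, with a median of 0.54 over the list against 0.02 over all genes. Sprr2a1 and Sprr2a2 had the same values, so the 4 and the median count 1 measurement more than once. In S7HP, 1 of the 6 was called, or 16.7%, where 19.0% of all genes were called. This was Sprr2k, which fell (-5.32 ± 1.61, SE, limma Benjamini-Hochberg adjusted p = 0.0457), a call lost in 9 of 14 alternatives (up to 0.160) that needed every LHP and S7HP tumor and S7HP+Snail tumor 15. Sprr1b, the closest relative by name, was at 10.71, 9.34 and 8.88 in LHP tumors 2, 3 and 6, lower in S7HP at 5.08, 6.56 and 5.36 in tumors 9, 11 and 12, and at 9.80, 1.0 and 2.64 in S7HP+Snail tumors 13, 14 and 15, without passing. Its LHP and S7HP tumors did not overlap, in the opposite direction to Sprr1a. Sprr2a1 was at 12.85 in S7HP+Snail tumor 13 against 7.21 at most in LHP and S7HP. Sprr2a1 and Sprr2a2 had equal values in 9 of 9 libraries, and their shared reads make both uncertain. In S7HP+Snail against S7HP and against LHP limma called 0 of 6 Sprr genes, with 0 and 1 at an unadjusted p under 0.05, and 1 in each without S7HP+Snail tumor 13.

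Other squamous genes were mixed. Of 16 entries 4 were tested, and in S7HP involucrin, Ivl, an envelope protein, rose (4.55 ± 1.34) and loricrin, Lor, another, fell (-5.30 ± 1.08), with limma Benjamini-Hochberg adjusted p of 0.0418 and 0.00987. Ivl lost its call in 8 of 15 alternatives (up to 0.141), needing every LHP and S7HP tumor, and Lor in 0 of 14. Lor reached the filter level in LHP tumors only, so its fall follows in part from passing. In S7HP+Snail over LHP suprabasin, Sbsn, rose (2.86 ± 0.74, adjusted p = 0.0492; limma, Benjamini-Hochberg), lost in 11 of 15 (up to 0.160) and needing every LHP and S7HP tumor and S7HP+Snail tumors 13 and 15. Defining basal and squamous keratins were low and under the filter: Krt5 reached 4.42, Krt14 3.75, Krt13 1.83 and Krt4 1.35. Krt6a, a keratin of stressed and wounded epithelium, was at 6.22, 3.86 and 5.37 in LHP tumors 2, 3 and 6 and at 2.44 at most elsewhere, also under the filter. Of the 3 comparisons, S7HP+Snail against S7HP had 0 of 4 called by limma and 2 at an unadjusted p under 0.05, with 1 called without S7HP+Snail tumor 14.

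Proposed receptors and partners of trefoil factors and Spink1 went both ways. Between S7HP and LHP 28.6% of those tested were called, where 19.0% of all genes were, and nothing is read from this count. Without passing, Cxcr4 (1.26), F2rl1 (0.96) and Gkn2 (5.43) had higher means in S7HP and Egfr (-0.39) and Dmbt1 (-0.53) lower ones. In S7HP 2 of 7 tested fell, the atypical chemokine receptor Ackr3 (-5.34 ± 0.58) and Lingo2 (-6.36 ± 1.69), a receptor proposed for Tff3, with limma Benjamini-Hochberg adjusted p of 0.000755 and 0.0288. Ackr3 was called in each of 15 alternatives, and Lingo2 was lost in 5 (up to 0.104), needing every LHP tumor and S7HP tumors 9 and 11. Ackr3 was also lower in S7HP+Snail than in LHP (-3.46 ± 0.58, adjusted p = 0.0101; limma, Benjamini-Hochberg), a call that held in each alternative. In that comparison limma called 2 of 7 without S7HP+Snail tumor 13 or without tumor 14. Egfr, a receptor proposed for Spink1, ranged from 9.61 to 11.33 over all tumors, and Cxcr4, a receptor proposed for Tff2, from 6.56 to 11.19. Neither passed. With Snail against S7HP limma called 0 of 7, with 1 at an unadjusted p under 0.05 and 1 called without S7HP+Snail tumor 14.

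Of 21 tested transcription factors of endoderm and secretory cells, 7 rose and 3 fell between LHP and S7HP, 47.6% of the list where 19.0% of all genes were called. The largest difference of the list was that of Sox2, a factor of stomach and neural cells, at 9.83, 9.63 and 9.40 in LHP tumors 2, 3 and 6 and 1.58, 0.00 and 0.42 in S7HP tumors 9, 11 and 12 (-8.95 ± 1.56, SE, limma Benjamini-Hochberg adjusted p = 0.00585). Hnf4a (3.05 ± 0.34), Foxa3 (2.22 ± 0.28) and Onecut1 (3.85 ± 0.57), liver and gut factors, rose and Creb3l1 (-3.36 ± 0.49), a factor of secretory cells, fell, with limma Benjamini-Hochberg adjusted p of 0.000809, 0.00134, 0.00263 and 0.00250. All 4 calls held in each of 15 alternatives. With Snail against S7HP 1 of 21 rose, Creb3l1 (2.81 ± 0.49, adjusted p = 0.0219), and 1 fell, Foxa3 (-1.38 ± 0.28, adjusted p = 0.0404; limma, Benjamini-Hochberg). Creb3l1 needed S7HP tumors 11 and 12 (up to 0.0917 otherwise), and Foxa3 was lost in 11 of 15 (up to 0.109), needing every LHP and S7HP tumor and S7HP+Snail tumors 13 and 15. In S7HP+Snail against LHP Hnf4a (1.85) and Foxa2 (2.6) rose and Sox2 (-7.38) fell, with adjusted p of 0.0155, 0.0158 and 0.0260 (limma, Benjamini-Hochberg). The call of Hnf4a needed LHP tumors 2 and 6 (up to 0.0597), that of Foxa2 LHP tumors 3 and 6 (up to 0.0659), and that of Sox2 every LHP tumor and S7HP+Snail tumor 15 (up to 0.0858). Cdx2, the master factor of intestine, was at 8.59, 0.00 and 8.32 in S7HP+Snail tumors 13, 14 and 15 and between 4.51 and 6.64 in S7HP, without passing. Spdef and Atoh1, factors of goblet cells, stayed at or under 3.50 and at 0.

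Some markers of liver and stromal cells moved beside the members. In S7HP against LHP, 8 of 16 hepatocyte genes rose and 0 fell, with Ambp at 2.52 and Alb at 2.72. Biliary genes went both ways: 3 of 13 rose (among them Tspan8 by 5.09 and Prom1 by 4.77) and 2 fell (Sox9 by -1.87 and Cdh6 by -2.94). There were falls in 6 of 12 stellate cell and fibroblast genes (Col1a1 by -3.19), 2 of 12 endothelial genes and 1 of 12 macrophage genes. Of 7 erythroid genes 1 rose (all by limma, Benjamini-Hochberg adjusted p under 0.05). Among all tested genes 19.0% were called in this comparison. The endothelial, macrophage and erythroid lists, at 16.7%, 8.33% and 14.3%, lay under that share, and nothing is read from their counts. Limma called 0 of 8 neutrophil and 0 of 6 lymphocyte genes there, with 3 and 0 at an unadjusted p under 0.05, but 4 neutrophil genes with only the 6 libraries compared, 2 without S7HP+Snail tumor 15 and 1 without tumor 14. The 8 hepatocyte calls became 5 without LHP tumor 2 or without LHP tumor 3. The 5 biliary calls became 2 without LHP tumor 3, 3 without S7HP tumor 9 or 11 and 8 with only the 6 libraries compared, and the 6 stellate calls stayed between 5 and 7 in number. The call of Sox9 needed each of LHP tumors 2 and 3 and S7HP tumor 11. The 2 endothelial calls became 1 when LHP tumor 3 or 6 or S7HP tumor 11 or 12 was left out, and the erythroid call was lost when LHP tumor 2 or 6 or S7HP tumor 9 was. Summed log2 levels were 15.29 to 16.06 in LHP, 17.43 to 18.84 in S7HP and 17.02 to 17.95 in S7HP+Snail for hepatocyte genes, and 16.62 to 17.52, 16.46 to 17.57 and 15.98 to 18.51 for biliary genes. For stellate cells and fibroblasts they were 15.73 to 16.16, 13.04 to 13.62 and 14.07 to 14.71. In S7HP+Snail against S7HP, 1 of 12 endothelial genes rose (Plvap, 1.45), lost in 10 of 15 alternatives and needing every LHP and S7HP tumor and S7HP+Snail tumors 13 and 14, and limma called 0 in the other 7 cell type lists just named, with 0 to 4 at an unadjusted p under 0.05. In S7HP+Snail against LHP, 4 of 16 hepatocyte and 2 of 13 biliary genes rose, 1 biliary and 4 of 12 stellate genes fell and 1 of 7 erythroid genes rose, while limma called 0 endothelial, macrophage, neutrophil and lymphocyte genes, with 1, 1, 3 and 0 at an unadjusted p under 0.05. Among all tested genes 2.30% were called in S7HP+Snail against S7HP and 7.22% in S7HP+Snail against LHP. In the latter, the 4 hepatocyte calls became 2 without LHP tumor 2 or without LHP tumor 6 and 7 without S7HP tumor 9. The 4 stellate calls became 2 without LHP tumor 3, LHP tumor 6 or S7HP+Snail tumor 14. The erythroid call was lost in 9 of 14 alternatives and needed each LHP tumor, S7HP tumors 11 and 12 and S7HP+Snail tumors 14 and 15. Limma called 1 macrophage gene without S7HP+Snail tumor 14, without S7HP tumor 9 or with a pseudocount of 16. It called 1 neutrophil gene without S7HP+Snail tumor 15. The part of these cell types in the levels of the members was not tested.

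Profiles most like each member were sought among 3272 genes, by Pearson's r over the 9 log2 values. The r is a description, since group differences and library scaling are shared by all genes. For Tff1 they were the zinc importer Slc39a4 (0.986), the chemokine Ccl20 (0.981), the nucleotide receptor P2ry1 (0.976), Erich5 (0.962) and annexin Anxa4 (0.961). For Tff2 they were Smim6 (0.962), the brush border bundler Pls1 (0.961), the Wnt receptor Fzd5 (0.959), the homeobox factor Barx2 (0.959) and Pglyrp1 (0.951). For Tff3 they were Mbip (0.989), Gstt3 (0.983), the tetraspanin Tspan8 (0.983), the hexokinase-like Hkdc1 (0.980) and the sterol esterifying enzyme Soat2 (0.976). For Spink1 they were the galectin Lgals9 (0.988), Sema4a (0.987), the transporter Abcc5 (0.976), Tmem8 (0.976) and the channel gene Kcnu1 (0.975). For Sprr1a the values were lower: the tubulin Tuba4a (0.951), Sel1l3 (0.943), the endocrine factor Insm1 (0.938), the melanosome linker Mlph (0.934) and Crct1 (0.929). No gene appeared for more than 1 member. Ccl20, for one, had group means of 3.54 ± 1.37, 10.01 ± 0.61 and 5.76 ± 1.31 in LHP, S7HP and S7HP+Snail, and Crct1 means of 3.10 ± 1.2, 7.11 ± 0.99 and 1.88 ± 1.69 (SD, n = 3 each).

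As a scale for these levels, the hepatocyte protein gene Alb had means of 13.50, 16.22 and 15.99 and the fetal liver gene Afp 7.55, 15.04 and 12.93 in LHP, S7HP and S7HP+Snail. Tff1 in S7HP, at 13.97, was thus within 3 log2 units of Alb, and in LHP, at 5.17, more than 8 below it.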

How the data were processed

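The deposited files hold 1 value per gene symbol for each of the 9 tumors, on a log2 scale. Per the labels' protocols, a QuantSeq 3′ kit was used on 500 ng of total RNA, and per the submitters' processing notes mm10, Bowtie2 and edgeR were used. No version is given, and neither is the counting tool nor the annotation in the sources used here. The deposited log2 values are those of a quantile-normalized count plus 1, as the values show: 9 times the unlogged value was whole (tolerance 0.001, widened in proportion for large values) for 100% of values in each library, as a mean of 9 libraries at one rank gives. Quantile normalization removes each library's depth and gives all libraries 1 distribution.

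The 14215 genes that reached a log2 value of 4 in 3 or more libraries were tested. Spink4 and the erythroid gene Slc4a1 reached it in no LHP tumor and Lor in LHP tumors only. Their calls between S7HP and LHP therefore follow in part from passing. All 9 libraries were fitted together with limma 3.58.1 in R 4.3.3 (lmFit, then eBayes with trend and robust variances), two-sided, with calls where the p, adjusted by Benjamini-Hochberg over all genes tested, was under 0.05. SE are limma's. The procedure was checked on simulated data with known changes. Coordinates are from GENCODE M21 (GRCm38, the assembly behind mm10). Of 239 entries in 17 lists, 233 matched a symbol. Members and lists were chosen with earlier results of these data known. Promoters came from RefSeq, where 1 of 5 members matched. Named genes were the members, up to 4 called genes per list and comparison with the smallest adjusted p, the 5 genes most like each member (spanning at least 3 in log2, predicted genes passed over), genes within 100 kb of the trefoil genes, and Alb, Afp and Krt19. Any other gene named was chosen after its values were seen. Alternatives were other filters, a pseudocount of 16, median centring, another variance model, fits of only the 6 libraries compared, and leaving out each library. Plots were drawn with matplotlib 3.10.9.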

Additional observations from a re-analysis of the deposited data

How the results depend on the processing

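Directions of the members' differences were the same under all 15 alternatives, except Sprr1a between S7HP+Snail and LHP, which was 0.28 and turned to -0.46 without LHP tumor 6. Leaving out 1 library gave ranges, in the order S7HP minus LHP, S7HP+Snail minus S7HP and S7HP+Snail minus LHP, of 8.26 to 9.27, -6.48 to -3.91 and 2.31 to 4.89 for Tff1, of 7.21 to 9.56, -6.34 to -1.99 and 2.30 to 6.65 for Tff2, of 9.23 to 11.01, -3.18 to -2.06 and 6.70 to 8.48 for Tff3, of 5.71 to 6.62, -2.62 to -0.92 and 3.62 to 5.31 for Spink1, and of 3.88 to 5.32, -4.82 to -3.80 and -0.46 to 0.98 for Sprr1a. With a pseudocount of 16, Tff3 moved from 9.83 to 6.78 (S7HP minus LHP) and from 7.29 to 4.29 (S7HP+Snail minus LHP). The differences of Tff2 from LHP depend on the pseudocount too, since its LHP counts were 25.0, 0 and 13.7.

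Over all genes, limma called 2702 between S7HP and LHP (1465 to 3163 leaving out 1 library, with 1479 and 1465 without LHP tumors 3 and 6 and 1594 and 1768 without S7HP tumors 9 and 11), 327 between S7HP+Snail and S7HP (63 to 451, with 205 and 187 without LHP tumors 3 and 6 and 136, 63 and 87 without S7HP tumors 9, 11 and 12) and 1026 between S7HP+Snail and LHP (293 to 1049, with 452, 293 and 311 without LHP tumors 2, 3 and 6). Fitting only the 6 libraries compared gave 3430, 120 and 682. Of the genes in the 17 lists, 45, 4 and 21 were called in these comparisons. Leaving out 1 library gave 30 to 53, 0 to 8 and 9 to 26. The count of 4 became 8 with a pseudocount of 16, 2 with neither trend nor robust variances and 1 with only the 6 libraries. Of the calls on list genes eligible for naming, 22 of 34, 0 of 4 and 9 of 21 held in every alternative, which bounds what 3 tumors a group can show. The cause of these changes was not tested. No paired analysis was possible because the groups share no tumor numbers.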
